A study of Mus musculus with 4 samples.

Results

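The alternative exons of 10 genes whose splicing is known to differ between mesenchymal and epithelial, muscle or neural cells were followed through the induction of the melanocyte form of Mitf, the master transcription factor of the melanocyte, in mouse embryonic fibroblasts (MEFs). The genes are Fn1, Cd44, Pkm, Tpm1, Tpm2, Actn1, Enah, Ctnnd1, Fgfr1 and Fgfr2. They were taken for their known splice switches, with earlier results of these data known. No measured value enters the rule that takes their exons, but other exons past 2-fold are named as well. The GENCODE M21 annotation places 285 of the 234718 exons in the deposited table in these genes. Constitutive exons are those held by every complete coding transcript that spans them, and alternative exons are those which some of these transcripts skip or replace. Named here are 44 exons that are known to differ between cell types, or to share a known splice region with one that does. Some of them, such as first and last exons of Tpm1, are not among the alternative exons counted below.

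Of the 4 conditions of the series, 3 are described, with 1 library each. WT MEF are labelled as wild-type fibroblasts at passage 3, and their column was matched to that label by its name, MEF. Dox (-) are fibroblasts at passage 5 that carried a doxycycline-inducible Mitf in the Col1a1 locus and the M2rtTA activator at ROSA26, kept without doxycycline. Dox (+) are the same knock-in fibroblasts at passage 5 after 6 days of doxycycline. Both knock-in libraries came from chimeric embryos made with 1 targeted embryonic stem cell clone, which also carried an mCherry marker. PMel, a melanocyte sample, was not analysed here. With 1 library per condition no difference could be tested, and passage and genotype cannot be told apart between WT MEF and Dox (-). Intervals and ± values are 95% intervals that cover counting error only. Triplets of values are always in the order WT MEF, Dox (-) and Dox (+).

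Alternative splicing lets one gene give several proteins, by including a cassette exon in only some transcripts or by choosing one of a pair of mutually exclusive exons. Epithelial cells use the regulators Esrp1 and Esrp2 to set many of these choices, and mesenchymal cells largely lack them and use others such as Rbfox2, Qk, Ptbp1 and Mbnl1. Known mesenchymal forms include standard Cd44 without variable exons, fibronectin with its EDA and EDB repeats, the IIIc forms of the fibroblast growth factor receptors and the long form of p120 catenin from Ctnnd1.

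The exons that follow are shown because the values turn on them. They were read from the GENCODE M21 transcripts (mm10) and run 5′ to 3′. EDA, at chr1:71603660-71603929, and EDB, at chr1:71613763-71614035, are the extra fibronectin repeats, and v10, at chr2:102831330-102831536, is the last Cd44 variable exon. All are on the minus strand, and no bases are marked in them.
Fn1 EDA: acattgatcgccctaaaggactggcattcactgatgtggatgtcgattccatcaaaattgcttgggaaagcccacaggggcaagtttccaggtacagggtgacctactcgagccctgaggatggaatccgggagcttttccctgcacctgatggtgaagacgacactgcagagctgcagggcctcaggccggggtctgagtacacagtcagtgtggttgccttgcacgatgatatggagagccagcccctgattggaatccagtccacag
Fn1 EDB: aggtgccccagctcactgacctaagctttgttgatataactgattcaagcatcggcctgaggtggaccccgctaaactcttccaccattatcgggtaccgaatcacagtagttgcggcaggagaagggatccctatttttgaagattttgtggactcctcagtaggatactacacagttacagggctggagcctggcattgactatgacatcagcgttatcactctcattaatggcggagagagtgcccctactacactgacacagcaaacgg
Cd44 v10: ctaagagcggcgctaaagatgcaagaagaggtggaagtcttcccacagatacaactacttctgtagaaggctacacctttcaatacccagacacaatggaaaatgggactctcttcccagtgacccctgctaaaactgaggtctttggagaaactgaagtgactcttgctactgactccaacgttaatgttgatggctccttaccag

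For 3 of the exclusive pairs whose exons have the same length, capitals mark the bases at which the exons of a pair differ, position by position. They are Pkm M1, at chr9:59675029-59675195, and M2, at chr9:59675568-59675734, on the plus strand, Tpm1 6a, at chr9:67032466-67032541, and 6b, at chr9:67031951-67032026, and Tpm2 6a, at chr4:43519003-43519078, and 6b, at chr4:43518644-43518719, on the minus strand. The Pkm exons were the same at 61.7% of 167 bases, the Tpm1 exons at 56.6% and the Tpm2 exons at 53.9% of 76 bases. CCATGG, which reads the same on both strands, occurred 2 times in M1 and not in M2, and CTGCAG, also the same on both strands, occurred 1 time in M2 and not in M1. These motifs were present in 8.60% and 16.6% of 8666 internal coding exons of 160 to 170 bases.
Pkm M1: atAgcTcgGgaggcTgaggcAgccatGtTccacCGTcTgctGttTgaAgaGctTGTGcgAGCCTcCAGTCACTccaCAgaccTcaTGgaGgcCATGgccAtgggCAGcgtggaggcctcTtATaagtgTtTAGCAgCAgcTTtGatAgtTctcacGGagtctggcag
Pkm M2: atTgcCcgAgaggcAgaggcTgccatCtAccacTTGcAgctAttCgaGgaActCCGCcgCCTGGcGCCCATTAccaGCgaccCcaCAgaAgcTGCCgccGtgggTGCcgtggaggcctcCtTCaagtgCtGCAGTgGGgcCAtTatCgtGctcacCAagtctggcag
Tpm1 6a: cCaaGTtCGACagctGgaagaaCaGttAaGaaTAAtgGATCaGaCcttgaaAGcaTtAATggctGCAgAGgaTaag
Tpm1 6b: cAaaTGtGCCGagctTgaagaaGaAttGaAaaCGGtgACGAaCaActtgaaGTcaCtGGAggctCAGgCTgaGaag
Tpm2 6a: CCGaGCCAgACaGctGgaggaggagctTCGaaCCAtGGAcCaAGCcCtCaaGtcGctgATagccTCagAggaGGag
Tpm2 6b: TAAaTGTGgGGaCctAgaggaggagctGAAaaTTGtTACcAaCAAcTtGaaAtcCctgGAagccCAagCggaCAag

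The libraries were alike in depth. Exon values were RPKM, read numbers scaled to exon length and library size. Multiplied back by the depths they imply, 45000000, 45000000 and 44000000 reads, 96.8% to 97.1% of low values came within 0.02 of a whole read. The highest exon of Mitf had 1.52, 30.8 and 1544 RPKM. The summed level of 8 macrophage markers was 52.0, 13807 and 484 RPKM, with 2, 8 and 5 of them over 10 RPKM. Of 8 fibroblast markers 7, 8 and 8 were over 10 RPKM, with sums of 18350, 45433 and 11943 RPKM, and of 10 melanocyte markers 0, 0 and 4. Among the fibroblast markers Col1a1 was at 4958, 12562 and 2301 RPKM, lowest in Dox (+), and Dcn at 30.0, 1637 and 719.5 RPKM, lowest in WT MEF. Thy1 was at 726, 2014 and 3608 RPKM, highest in Dox (+), so these markers did not move together. Markers of other cell types thus differed between the libraries, and their part in the values was not tested. In a bulk library, fewer cells of a type and less RNA per cell cannot be told apart. Coverage leaned towards the 3′ end most in WT MEF. In well-covered genes with 10 or more constitutive exons, the mean read density of the last few over that of the first few was compared. Its median was 1.77 in WT MEF, against 1.41 in Dox (-) and 1.18 in Dox (+).

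The genes were abundant enough for their exons to be read. The median RPKM over constitutive exons was 4142, 7234 and 5506 for Fn1 (chr1:71585520-71653200), which encodes fibronectin of the extracellular matrix. Single Fn1 exons in Dox (+) ranged from 0.583 to 2.01 times WT MEF, so the direction depended on the exon. Cd44 (chr2:102811141-102901665), the hyaluronan receptor, was at 152, 663 and 1173 RPKM, and each of its 7 constitutive exons was 1.74 to 1.96 times as high in Dox (+) as in Dox (-). Pkm (chr9:59656368-59679375), the pyruvate kinase of glycolysis, was at 1316, 1049 and 2390 RPKM, and each of its 8 constitutive exons was 2.09 to 2.53 times as high in Dox (+) as in Dox (-). Both genes were thus highest in Dox (+). For scale, 9.33% of all genes above 10 RPKM were over 2-fold higher and 11.1% over 2-fold lower in Dox (+) than in Dox (-), by their highest exon.

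Among the cytoskeletal and junction genes, Tpm1 (chr9:67022590-67049406), a tropomyosin of actin filaments, was at 5826, 7087 and 6341 RPKM. Tpm2 (chr4:43514711-43523765), another tropomyosin, was at 1869, 1926 and 3057 RPKM, and Actn1 (chr12:80167547-80260371), which crosslinks actin, at 754, 1241 and 1648 RPKM. Enah (chr1:181896384-182019990), an actin regulator, was at 97.6, 327 and 236 RPKM, and Ctnnd1 (chr2:84600071-84650765), which encodes p120 catenin, at 405, 326 and 335 RPKM. None of these 5 medians differed by over 2-fold between Dox (+) and Dox (-). By these medians the receptors lay in opposite directions from WT MEF, with Fgfr1 (chr8:25513654-25575718) at 180.1, 336 and 538 RPKM and Fgfr2 (chr7:130162451-133123350) at 131, 42.8 and 40.3 RPKM. The constitutive exons of Fgfr2 did not all go with the median. They ranged from 0.286 to 2.06 times WT MEF in Dox (-) and from 0.264 to 2.83 times in Dox (+).

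A skipped exon need not read 0 in this table, because its values look like counts in which a read spliced over an intron also counts on the exons inside it. The Cd44 variable exons show the pattern. Exons v1 to v9 are 90 to 126 bases long, yet each held 345 to 351 reads in WT MEF, 1462 to 1572 in Dox (-) and 2506 to 2702 in Dox (+), close to the same number whatever the length. The same was seen for genes that lie inside an intron of another gene. The 7 listed exons of Htr2b, of 92 to 1207 bases and in an intron of Psmd1, held 624 to 630 reads in WT MEF, 589 to 729 in Dox (-) and 839 to 880 in Dox (+). Of 283 such nested exons in WT MEF 1 had no read, and of 332 in Dox (-) and 369 in Dox (+) 0 had none. A nested exon held a median of 58.8%, 60.9% and 57.5% of the reads on its lower flank.

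**Figure D1:**
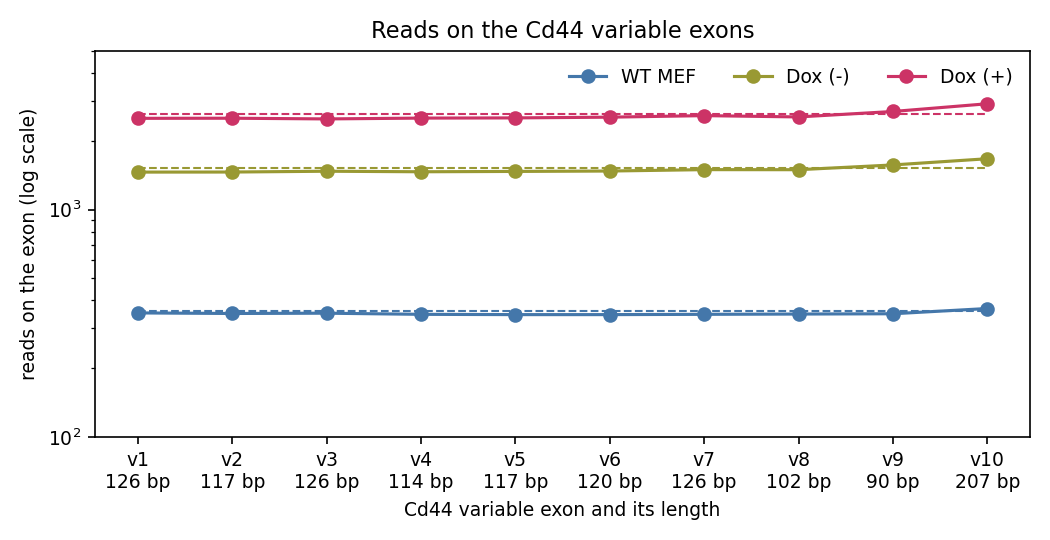
Reads on each Cd44 variable exon (points, log scale) and the number expected from reads spliced across it (dashed lines) in WT MEF, Dox (-) and Dox (+). The points lie close to the dashed lines in each library, and v10 holds the most, with 367, 1674 and 2922 reads.

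The ratio of an exon's RPKM to the median of its gene's constitutive exons therefore has a floor, which is higher for shorter exons. For 55 alternative exons of the 10 genes the median ratio was 0.458, 0.534 and 0.550. With 1 RPKM added to both values, 0 of 55 ratios were over 2-fold higher and 0 over 2-fold lower in Dox (+) than in Dox (-), beside 1.13% and 1.73% of all 3640 alternative exons. In Dox (-) against WT MEF there were again 0 of 55 each way, beside 3.15% and 1.4%. In Dox (+) against WT MEF 3 of 55 were higher, or 5.45% beside 4.6% of all alternative exons, and 0 were lower, beside 2.28%.

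These 3 exons belong to Enah, Fgfr2 and Ctnnd1. The ratio was 0.0431, 0.0667 and 0.127 for a 111-base exon of Enah (ENSMUSE00000686414), which held 21, 109 and 146 reads. Cd44 v2, of 117 bases, had higher ratios of 0.437, 0.419 and 0.418, so the Enah values are not read as inclusion. For the first immunoglobulin loop exon of Fgfr2 the ratio was 0.170, 0.229 and 0.346. For a 180-base exon of Ctnnd1 (ENSMUSE00000688686) it was 0.188, 0.291 and 0.398. All 3 ratios were lowest in WT MEF, the library with the strongest lean towards the 3′ end. The last 2 constitutive exons of Ctnnd1 had 1.44, 1.11 and 0.991 times the density of the first 2, those of Fgfr2 1.87, 1.16 and 0.749 times and those of Enah 2.71, 2.07 and 2.01 times, and the part of this in the ratios was not tested.

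To take off the reads that only pass over an exon, an inclusion estimate was made from the constitutive exons on both sides, where 0 stands for no transcript and 1 for every transcript with the exon. An estimate below 0 means fewer reads than the flanks give for skipping alone. Constitutive exons, whose true value is 1, gave a median of 1.10 at 130 to 180 bases in Dox (-), with 90% of 12264 of them between 0.605 and 2.03, so a single estimate is coarse. Each exon was therefore set beside constitutive exons of like length and depth. The estimate could be made for 32 of the 44 named exons, and exons under 50 bases are not read from it.

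Few of the estimates differed by over 0.3 between libraries, but the counts are too small to be set apart from the shares over all alternative exons. The exons counted include the 10 variable exons of Cd44, whose estimates were near 0 in each library. Among alternative exons of these genes with at least 50 bases and 200 reads, 0 of 27 were higher by over 0.3 in Dox (+) than in Dox (-) and 1 was lower, beside 7.6% and 9.1% of all alternative exons. In Dox (-) against WT MEF 1 of 25 was higher and 0 lower, beside 5.7% and 12.5%, and in Dox (+) against WT MEF 1 was higher and 1 lower, beside 8.23% and 16.6%. The exon that was higher both times was Pkm M1, and the one that was lower was Fgfr1 IIIc. In constitutive exons the shares in Dox (+) against Dox (-) were 4.78% and 8.67%.

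Fibronectin transcripts held both extra repeats in part, and EDA stood above EDB in each library. EDA held 42532, 45542 and 34680 reads, and its inclusion estimate was 0.39 ± 0.01, 0.28 ± 0.01 and 0.44 ± 0.01. EDB held 20866, 32202 and 21884 reads, and its estimate was 0.23 ± 0.01, 0.23 ± 0.01 and 0.17 ± 0.01. All 6 values lay below the central 90% of like constitutive exons. For EDA, Dox (+) was higher than Dox (-) by 0.16, outside the range of -0.15 to 0.11 that held 90% of 15 constitutive exons, a small number. The same difference for EDB was -0.06, inside its range of -0.09 to 0.14.

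The IIICS segment, which has splice sites of its own and binds integrins, had 5959, 6541 and 4188 RPKM, or 1.44, 0.904 and 0.760 times the constitutive median. It lies towards the 3′ end, where Fn1 coverage was highest in WT MEF. The last 2 constitutive exons of Fn1 had 2.21, 1.09 and 0.752 times the density of the first 2. EDA lies in the same part of the gene, and its plain ratio was 0.845, 0.518 and 0.530. WT MEF was thus highest for EDA on the ratio, and Dox (+) on the estimate made from neighbouring exons.

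**Figure D2:**
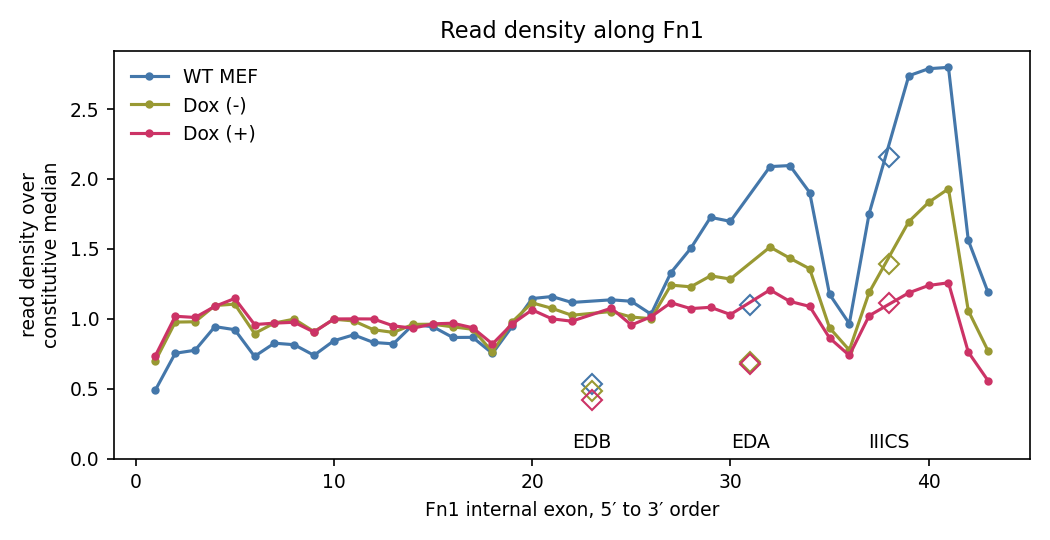
Read density of Fn1 internal exons in 5′ to 3′ order, over the median of the constitutive exons (filled circles), with EDB, EDA and IIICS as open diamonds, in WT MEF, Dox (-) and Dox (+). EDB and EDA dip below their neighbours in every library, and the rise towards the 3′ end is steepest in WT MEF.

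Of the Cd44 variable exons, v1 to v8 held about the reads that skipping gives. Their estimates lay between -0.04 and -0.01 over the 3 libraries, and between -0.16 and 0.07 with an overhang of 100 or 150 bases in place of the fitted one. The overhang is the length, in bases of flanking exon, that sets how many reads are taken off. For v9 the estimate was -0.04 ± 0.15, 0.04 ± 0.07 and 0.04 ± 0.06, with intervals that hold 0. For v10 it was 0.02 ± 0.07, 0.06 ± 0.03 and 0.07 ± 0.03 at the fitted overhang, but 0.07, 0.10 and 0.10 at 100 bases and -0.03, 0.00 and 0.01 at 150, so that it was not distinguished from 0. Like constitutive exons had values from 0.43, 0.50 and 0.57 upwards in their central 90%. The median of the constitutive exons, in contrast, was 7.73 times as high in Dox (+) as in WT MEF.

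**Figure D3:**
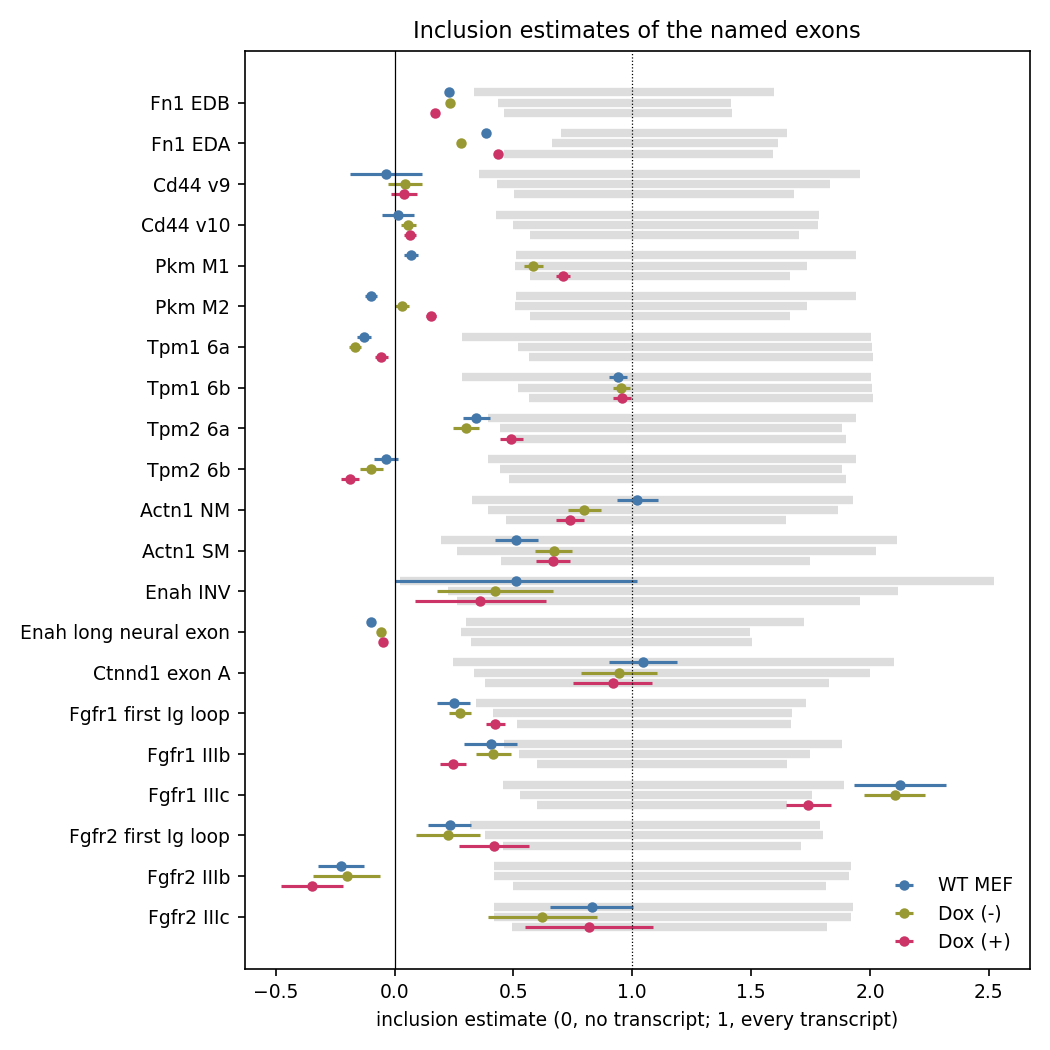
Inclusion estimates of the named exons of at least 50 bases, Cd44 v1 to v8 left out, in WT MEF, Dox (-) and Dox (+), with 95% counting intervals as coloured bars. Grey bands hold the central 90% of constitutive exons of like length and depth. Cd44 v9 and v10, Tpm1 6a and Fgfr2 IIIb lie near or below 0, and Tpm1 6b and Ctnnd1 exon A near 1.

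The mutually exclusive pairs were also read on their own, as the share of the first exon after the reads spliced over it were taken off. This assumes that each transcript holds exactly 1 exon of the pair, and a share below 0% means that the exon held fewer reads than transcripts with its partner would give.

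In both growth factor receptors IIIc held more reads than IIIb. The IIIc form has the ligand range of mesenchymal cells. Fgfr1 IIIb held 561, 1218 and 1646 reads and IIIc 1307, 2834 and 3899. The IIIb share of Fgfr1 was 29.2%, 29.2% and 28.8% by RPKM and -4.27% (-9.75% to 1.38%), -2.86% (-6.50% to 0.848%) and -3.83% (-6.92% to -0.677%) after correction. Fgfr2 IIIb held 169, 79 and 51 reads and IIIc 452, 184 and 178, and the corrected IIIb share was -11.9% (-21.2% to -2.01%), -2.96% (-17.3% to 12.6%) and -23.3% (-36.8% to -7.72%). These shares are at the fitted overhang, and at 100 bases they were 2.42%, 2.48% and 1.62% in Fgfr1 and -4.15%, 2.47% and -15.7% in Fgfr2. From the flanks Fgfr1 IIIb was at 0.40 ± 0.11, 0.42 ± 0.07 and 0.25 ± 0.05 and IIIc at 2.13, 2.10 and 1.74, above the value for every transcript, so these flanks give no usable level and the lower IIIc estimate in Dox (+) is not read as a change. Fgfr2 IIIb was at -0.23 ± 0.10, -0.20 ± 0.14 and -0.35 ± 0.13 and IIIc at 0.83 ± 0.17, 0.62 ± 0.23 and 0.82 ± 0.27. The Fgfr2 sums were 0.60, 0.42 and 0.47, where the corrected share assumes 1, so differences in that share are not settled.

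The first immunoglobulin loop exon, whose skipping gives a receptor of higher ligand affinity, was included in part. In Fgfr1 it held 494, 1211 and 2474 reads, and its estimate was 0.25 ± 0.07, 0.28 ± 0.05 and 0.42 ± 0.04. In Fgfr2 it held 267, 118 and 164 reads, with an estimate of 0.23 ± 0.09, 0.23 ± 0.13 and 0.42 ± 0.15. Dox (+) was the highest of the libraries in both receptors. The difference from Dox (-) was 0.15 in Fgfr1 and 0.19 in Fgfr2, inside the constitutive ranges of -0.19 to 0.19 and -0.38 to 0.38.

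In Tpm1 exons 2b and 6b held more reads than their partners 2a and 6a. Exon 6b held 20768, 25319 and 23222 reads, and its estimate was 0.94 ± 0.04, 0.95 ± 0.03 and 0.96 ± 0.04. Exon 6a held 12176, 14124 and 13945 reads, and its estimate was -0.13 ± 0.03, -0.17 ± 0.02 and -0.06 ± 0.03. The share of 6a was 37.0%, 35.8% and 37.5% by RPKM and -5.94% (-8.17% to -3.69%), -9.01% (-11.0% to -7.03%) and -1.89% (-3.94% to 0.165%) after correction. At an overhang of 100 bases the 6a share was 2.64%, -1.54% and 4.68%, so its sign is not settled, and it was under 5% at each overhang. Exon 2a, the smooth muscle choice, held 7440, 10070 and 9897 reads and 2b 19078, 23531 and 21919, which gave 2a a corrected share of -15.5%, -8.18% and -4.88%, or -6.77%, -1.83% and 1.12% at an overhang of 100 bases. Exon 1b, the first exon of the short forms, had 0.255, 0.266 and 0.281 times the constitutive median.

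At the 3′ end of Tpm1, exon 9d, common outside striated muscle, held 63616, 78614 and 63696 reads. The striated exon 9a held 9046, 11899 and 10506 reads, but the 816 further bases of its long form added 604, 1182 and 422 reads, or 16.4, 32.2 and 11.8 RPKM. In Tpm2 the 1142 bases of the longest last exon that lie outside 9d added 892, 1549 and 226 reads, beside 5975, 5886 and 7600 on 9d itself. Both extensions held more reads in Dox (-) than in the other libraries.

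Tpm2 differed from Tpm1 in that exon 6a held the larger share. Exon 6a held 5741, 5415 and 8695 reads and 6b, the skeletal muscle choice, 4648, 4263 and 5852. The share of 6a was 55.3%, 56.0% and 59.8% by RPKM and 72.6% (68.4% to 76.7%), 74.7% (70.6% to 78.9%) and 90.6% (87.3% to 93.9%) after correction, and the Dox (+) interval lay above the others. At an overhang of 100 bases the corrected share was 69.1%, 71.6% and 85.5%, and at 150 bases 76.0%, 79.4% and 98.3%. From the flanks 6a was at 0.34 ± 0.06, 0.30 ± 0.05 and 0.49 ± 0.05 and 6b at -0.04 ± 0.05, -0.10 ± 0.05 and -0.19 ± 0.04, with sums of 0.31, 0.20 and 0.30 where a pair would give 1. The corrected share assumes such a sum of 1, so the size of its difference in Dox (+) is not settled. The flank estimate of 6a was higher in Dox (+) than in Dox (-) by 0.19, outside the range of -0.23 to 0.14 that held 90% of 243 constitutive exons. Of 6 muscle markers 1, 3 and 3 were over 10 RPKM, with sums of 20.4, 769 and 2182 RPKM. Des was at 11.6, 571 and 1805 RPKM and Tnnt2 at 5.96, 66.7 and 268 RPKM, both highest in Dox (+). The smooth muscle gene Myh11 was at 1.75, 129 and 108 RPKM, highest in Dox (-). Myog, a defining gene of skeletal muscle, was at 0.0509, 0.102 and 0 RPKM, and the part of muscle gene expression in the result was not tested.

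Both exclusive exons of Actn1 held reads above those of skipping. The non-muscle exon NM, of the calcium-sensitive form, held 4221, 5198 and 6271 reads and the smooth muscle exon SM 3226, 4622 and 5722. The share of NM was 51.6%, 47.8% and 47.2% by RPKM and 74.6% (69.5% to 79.7%), 57.5% (53.2% to 61.7%) and 54.7% (50.8% to 58.5%) after correction, highest in WT MEF and with intervals that overlap in Dox (-) and Dox (+). From the flanks NM was at 1.02 ± 0.09, 0.80 ± 0.07 and 0.74 ± 0.06 and SM at 0.51 ± 0.09, 0.67 ± 0.08 and 0.67 ± 0.07. Their sums were 1.53, 1.47 and 1.40 where a pair would give 1, so the size of the difference in corrected share is not settled. The difference in NM between Dox (-) and WT MEF was -0.22, inside the constitutive range of -0.26 to 0.21.

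**Figure D4:**
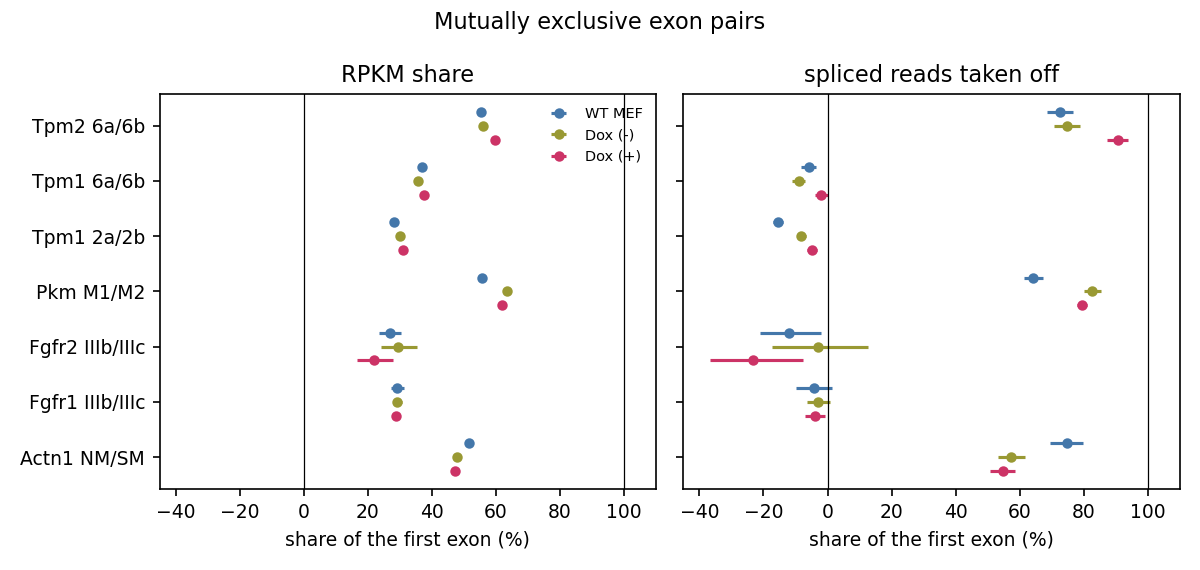
Share of the first exon of each mutually exclusive pair in WT MEF, Dox (-) and Dox (+), from RPKM (left) and after taking off the reads spliced over it (right), with 95% counting intervals. After correction at the fitted overhang the Tpm1 and receptor pairs lie below 0%, and Actn1, Pkm and Tpm2 between 54.7% and 90.6%.

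The Pkm pair is uncertain. M1, the exon of adult muscle and brain, held 3694, 5138 and 12313 reads, and M2, the exon of embryonic and dividing cells, 2937, 2963 and 7520. The M1 share was 55.7%, 63.4% and 62.1% by RPKM and 64.3% (61.2% to 67.3%), 82.7% (80.1% to 85.3%) and 79.4% (77.8% to 81.1%) after correction. M1 thus held more reads than M2 in every library. From the flanks M1 was at 0.07 ± 0.03, 0.58 ± 0.04 and 0.71 ± 0.03 and M2 at -0.10 ± 0.03, 0.03 ± 0.03 and 0.15 ± 0.02, with sums of -0.03, 0.61 and 0.86 where a pair would give 1. The M1 estimate was higher in Dox (-) than in WT MEF by 0.51, outside the constitutive range of -0.20 to 0.16, and that in Dox (+) was higher than in Dox (-) by 0.13, inside -0.19 to 0.14. The M2 exon had a match of at least 90% identity over at least 90% of its length in 8 other annotated genes, 7 of them pseudogenes, and M1 in 1. Reads of near-identical copies cannot be placed with certainty, so neither the share nor the sums are read further.

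In Ctnnd1, exon A near the carboxyl end held 2256, 1515 and 1417 reads, and its estimate was 1.04 ± 0.14, 0.94 ± 0.16 and 0.92 ± 0.17, near full inclusion. Exon B, of 87 bases, held 1012, 767 and 677 reads, 0.638, 0.600 and 0.529 times the constitutive median. Cd44 v9, of 90 bases and with an estimate near 0, had ratios of 0.566, 0.586 and 0.582. Exons 2 and 3 lie near the start of the gene, and their inclusion is known of mesenchymal p120 catenin. Exon 2 was at 0.250, 0.325 and 0.383 times the median and exon 3 at 0.211, 0.312 and 0.413 times. Both were lowest in WT MEF and highest in Dox (+), as was the evenness of coverage along this gene given above. Exon 2, of 118 bases, lay below the ratios of Cd44 v2, of 117 bases, at 0.437, 0.419 and 0.418. No inclusion estimate could be made for exons B, 2 and 3, so their ratios are not read as inclusion. Exon C is 18 bases long, and its ratio of 2.65, 3.08 and 2.97 is of the kind that skipping reads give a short exon. Exons 2, 3 and A are also part of an overlapping annotated gene at 100% identity, so their reads may be of either.

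In Enah, the long neural exon of 843 bases held 49, 307 and 247 reads, or 0.0132, 0.0248 and 0.0283 times the constitutive median, and its estimate was -0.10 ± 0.01, -0.06 ± 0.01 and -0.05 ± 0.01. The INV exon of 57 bases, which marks an invasive form, held 123, 466 and 348 reads, with an estimate of 0.51 ± 0.51, 0.42 ± 0.24 and 0.36 ± 0.27. These intervals are wide, and with 1 constitutive exon on each side the estimates were -0.35, -0.31 and -0.32, so inclusion of INV is not settled. Exons of 12 bases on either side of it held 121, 455 and 337 and 123, 461 and 346 reads, close to the INV numbers whatever the length, as on Cd44. The 111-base exon past 2-fold in the ratio had estimates of -0.96, -0.85 and -0.65, below 0 in each library. The epithelial exon 11a was not analysed here.

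Of the regulators that set these choices, Esrp1 was listed at 0 RPKM in all 3 libraries and Esrp2 was at 15.8, 7.31 and 6.87 RPKM by its highest exon. Rbm47, which also acts in epithelial cells, was at 0.966, 6.35 and 15.2 RPKM. Rbfox2 was at 235, 313 and 377 RPKM, Qk at 105, 225 and 248 and Mbnl1 at 156, 256 and 172. Ptbp1, which represses Pkm exon M1 and many muscle and neural exons, was at 446, 481 and 1073 RPKM, and its neural relative Ptbp2 at 53.0, 53.0 and 77.7 RPKM. Ptbp1 was thus highest in Dox (+), and the Esrp genes were low throughout. Rbm47 was highest in Dox (+) by its highest exon, on 2, 9 and 22 reads, but in Dox (-) by the median of its constitutive exons, at 0.134, 2.76 and 0.999 RPKM.

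Among 40 listed splicing regulators, 30 were above 10 RPKM in Dox (+) or Dox (-). Of these, 3 were over 2-fold higher in Dox (+), namely Ptbp1 (log2 difference 1.16), Rbpms2 (1.12) and Rbm47 (1.14, but -0.91 by constitutive exons), and Srsf5 (-1.41) was lower. The shares among all genes were 9.33% and 11.1%. From WT MEF to Dox (-), 3 of 30 were higher (Qk, 1.09; Mbnl2, 1.57; Rbpms, 1.48) and 2 lower (Hnrnpa1, -1.63; Esrp2, -1.01), beside 17.8% and 6.28% of all genes. From WT MEF to Dox (+), 6 of 31 were higher and 4 lower, beside 20.5% and 8.67%. The higher ones were Ptbp1 (1.26), Mbnl2 (1.04), Celf1 (1.47), Qk (1.23), Rbm47 (3.04), Rbpms (2.09), and the lower ones Esrp2 (-1.09), Hnrnpa1 (-1.44), Hnrnph1 (-1.10), Srsf5 (-1.62). The median log2 difference over the regulators was -0.25 in that comparison, and that over all genes 0.30. Rescaling the libraries to a common median left Ptbp1 (0.97), Mbnl2 (0.74) and Qk (0.94) under 2-fold, and by the constitutive median Mbnl2 (0.95), Rbm47 (0.82), Esrp2 (-0.78) and Hnrnph1 (-0.82) were under it. Rescaling moved the median of all genes to -0.01, and the shares of all genes to 13.4% higher and 13.2% lower. In Dox (-) against WT MEF it moved these shares to 14.7% and 10.0%, and Qk to 0.89, while Esrp2 was at -0.54 by the constitutive median. The epithelial markers Cdh1 (21.7, 1.08 and 0.697 RPKM) and Krt14 (32.8, 2.12 and 26.9 RPKM) were the 2 of 8 over 10 RPKM in WT MEF, and Epcam was at 1.68, 0.988 and 1.01 RPKM. Their part in the Esrp2 level was not tested.

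**Figure D5:**
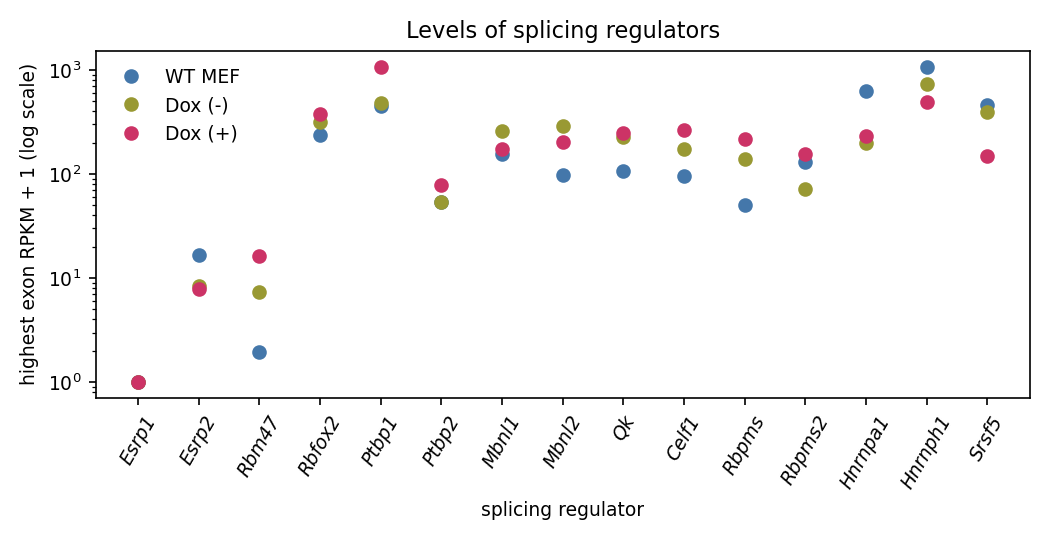
Levels of splicing regulators as the highest exon RPKM plus 1 (log scale) in WT MEF, Dox (-) and Dox (+). Esrp1 sits at 0 RPKM in every library, and Ptbp1 is highest in Dox (+). Rbm47 is highest there by this measure and lower than in Dox (-) by its constitutive exons.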

How the data were processed

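Poly(A) RNA libraries (TruSeq, not stranded) from the knock-in and wild-type fibroblasts were sequenced on a HiSeq instrument. The authors aligned the reads with TopHat2 2.0.10 to mm10 (bcl2fastq 2.17.1.14 made the reads) and counted reads on annotated exons with bedtools, and the deposited values are RPKM per exon. Columns were matched to samples by name, the wild-type one being headed only MEF, and 1 column that matched no sample label was not used. GENCODE M21 (same build) placed 228132 of 234718 exons in genes. Reads were recovered by multiplying RPKM by exon length and the depth, in steps of 1000000 reads, that made most low values whole. The members and exon lists were chosen with earlier results of these data known. The inclusion estimate, the corrected pair share and their limits (a change of 0.3, 200 reads, 50 bases) were chosen after the values were seen.

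Relative usage was log2 of (RPKM + 1) over (constitutive median + 1), with a constitutive median of at least 10 RPKM. The inclusion estimate divided reads by the density of up to 2 constitutive exons on each side, after taking off an overhang fitted per library (125, 120 and 120 bases). The inclusion estimate was also run on reads simulated from its own model, with even coverage along each gene. That run cannot show its error on real coverage, which was not even. For these flanks, transcripts that lack most of the common exons of their gene were ignored. Near copies were sought with blastn among the annotated transcripts, at 90% identity over 90% of the exon. Intervals are 95% Poisson or Clopper-Pearson. Reads are PCR products without molecular identifiers, so these cover counting error only. Gene levels were the highest exon RPKM of a gene. Named in the text are all 10 genes, the known switch exons, other exons past 2-fold, regulators past 2-fold, and 8 regulators in every case. Computation used pandas and SciPy, and other settings are in the closing section.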

Additional observations from a re-analysis of the deposited data

How the results depend on the processing

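Taking off the reads spliced over an exon, an alternative chosen after the data were seen, was run for the median ratio and the pair shares. The median inclusion estimate over alternative exons of the 10 genes was then 0.0428, 0.141 and 0.161 in WT MEF, Dox (-) and Dox (+). It covers only exons of at least 50 bases with an estimate, fewer than the median ratio. These 2 medians thus differ in exons as well as in measure. The median share of the first exon over 6 pairs was 30.0%, 27.3% and 26.4%, against 44.3%, 41.8% and 42.3% by RPKM. This median was 46.1%, 44.4% and 44.9% from reads without division by length, and 37.0%, 35.8% and 37.5% with Tpm1 2a and 2b added. The median ratio was 0.538 in WT MEF and 0.601 in Dox (-) with a pooled denominator, 0.577 in WT MEF with the nearest constitutive exons, and 0.573 in Dox (+) with 5 RPKM added.

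Counts of exons past the fold, in the order Dox (+) against Dox (-), Dox (-) against WT MEF and Dox (+) against WT MEF, were 1, 4 and 13 for the 10 genes and 330, 490 and 716 for all genes at 1.5-fold. At 4-fold they were 24, 20 and 33 for all genes, and 0 of the 10 genes' exons passed in the last comparison. All-gene counts were 104, 156 and 232 at 2-fold, and changed to 68, 60 and 92 with the nearest constitutive exons, where 5 exons of the 10 genes passed in the last comparison. They were 61, 70 and 146 with 5 RPKM added, and 328, 373 and 518 without a filter on low values. With exons of at least 50 bases the first was 59. Lower regulators numbered 1 in Dox (-) against WT MEF and 2 in Dox (+) against WT MEF by the constitutive median, 4 and 7 after rescaling the libraries, and 1 in the former with 5 RPKM added. Higher regulators in Dox (+) against WT MEF numbered 3 after rescaling. Rbm47 was lower in Dox (+) than in Dox (-), by -0.91 on the log2 scale, from constitutive exons, and no other regulator past 2-fold changed sign under these alternatives. The cause of these shifts was not tested. Of 96 inclusion estimates, 4 that differed from 0 by more than counting error changed sign at an overhang of 100 bases, namely Cd44 v3 in Dox (+) (0.0302), Tpm1 6a in WT MEF and Dox (+) (0.0136 and 0.0534) and Tpm2 6b in Dox (-) (0.0159). At 150 bases 2 did, Pkm M1 in WT MEF (-0.0084) and M2 in Dox (-) (-0.0676). With 1 constitutive exon a side 9 did, Tpm2 6b in Dox (-) (0.0526), Enah INV (-0.35, -0.31 and -0.32) and the 12-base Enah exons upstream in Dox (-) and Dox (+) (-1.65 and -1.78) and downstream in all 3 libraries (-1.65, -1.54 and -1.56). Corrected shares changed sign likewise at 100 bases for Fgfr1 IIIb in Dox (+) (1.62%), Tpm1 2a in Dox (+) (1.12%) and Tpm1 6a in WT MEF (2.64%). No paired analysis was possible because each condition has 1 library.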
